A study of Mus musculus with 12 samples.

Results

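10 genes of the pathway through which leukemia inhibitory factor (LIF) acts on mouse embryonic stem (ES) cells were followed in lines with reduced Kdm5c, a histone H3K4 demethylase. They are the receptor chains Lifr and Il6st, the transcription factor Stat3, the feedback inhibitor Socs3 and the downstream genes Junb, Gbx2, Bcl3, Pim1, Pim3 and Myc. The members were picked by name, with earlier results of these data known. All 10 of 10 were found among the 18322 genes with a symbol on the array, each read from its brightest probe.

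Expression was measured on 12 two-colour oligonucleotide arrays. The knockdown lines shKdm5c#1 and shKdm5c#2 were made by infecting IB10 (E14) mouse ES cells with pLKO-puro lentivirus that carried a hairpin against Kdm5c. The control line carried a non-targeting hairpin in the same vector, and the reference was RNA of untreated IB10 cells, taken as 1 preparation and hybridised on every array. All 3 lines went through puromycin selection, and each is 1 polyclonal line of pooled surviving colonies; the reference is labelled untreated. Cells grew on gelatin in serum with added LIF, so pathway activity without LIF was not measured. Each line had 4 cultures, A to D. The dyes were swapped between them, so that RNA of the line carried Cy3 in A and C, and Cy5 in B and D.

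LIF binds a receptor made of Lifr and the shared signalling chain gp130, which Il6st encodes, and Janus kinases on this receptor phosphorylate Stat3. Phosphorylated Stat3 enters the nucleus and switches on genes that help mouse ES cells to self-renew. Among these genes is Socs3, whose protein binds the receptor and the kinases and damps the signal. The arrays measure RNA, and phosphorylation of Stat3 was not measured.

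In the sample channel, 84.4 to 96.4 percent of the gene spots on an array exceeded background. Kdm5c stood at 64.1 percent of control in shKdm5c#1 and at 61.7 percent in shKdm5c#2 (adjusted p = 1.66e-07 and 2.98e-08 by limma). Of its other 2 probes, one gave log2 differences of -0.98 and -0.99 and was called (7.65e-10 and 1.95e-10 over all gene probes), and one gave -0.10 and -0.04 and was not (0.143 and 0.689). The 11 measured ES cell markers, Pou5f1, Sox2, Nanog and Zfp42 among them, were above background in all 12 sample channels. With 4 cultures per line, the median standard error of a difference between lines was 0.04 on the log2 scale. P-values are limma's, adjusted by Benjamini-Hochberg over 18322 genes, with 0.05 as the threshold for a call. They measure the spread between cultures of 1 line per hairpin, not between independently made lines. In these bulk samples a lower signal from fewer expressing cells and from less RNA per cell cannot be told apart.

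The members did not move together. Socs3 and most of the downstream genes changed in at least 1 line, while Lifr, Stat3 and Junb, read from their brightest probes, were not called in any comparison. Socs3, Gbx2 and Bcl3 were lower than control in both knockdown lines, and Pim1 was higher in both. Pim3 was higher than control in shKdm5c#1 and lower in shKdm5c#2. Against control, 2 members were called higher and 3 lower in shKdm5c#1, where 18.7 percent of all genes were called (9.01 percent higher and 9.66 percent lower). In shKdm5c#2, 2 members were called higher and 5 lower, against 22.2 percent of all genes (9.96 percent higher and 12.3 percent lower). These 2 comparisons share the control arrays. Because the members were chosen with earlier results of these data known, the shares over all genes are given for description only. The median log2 difference of the members was 0.03 in shKdm5c#1 and -0.12 in shKdm5c#2, against -0.0018 and -0.0042 over all genes. The median size of the difference, whatever its sign, was 0.09 and 0.19 over the members and 0.05 and 0.05 over all genes.

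**Figure D1:**
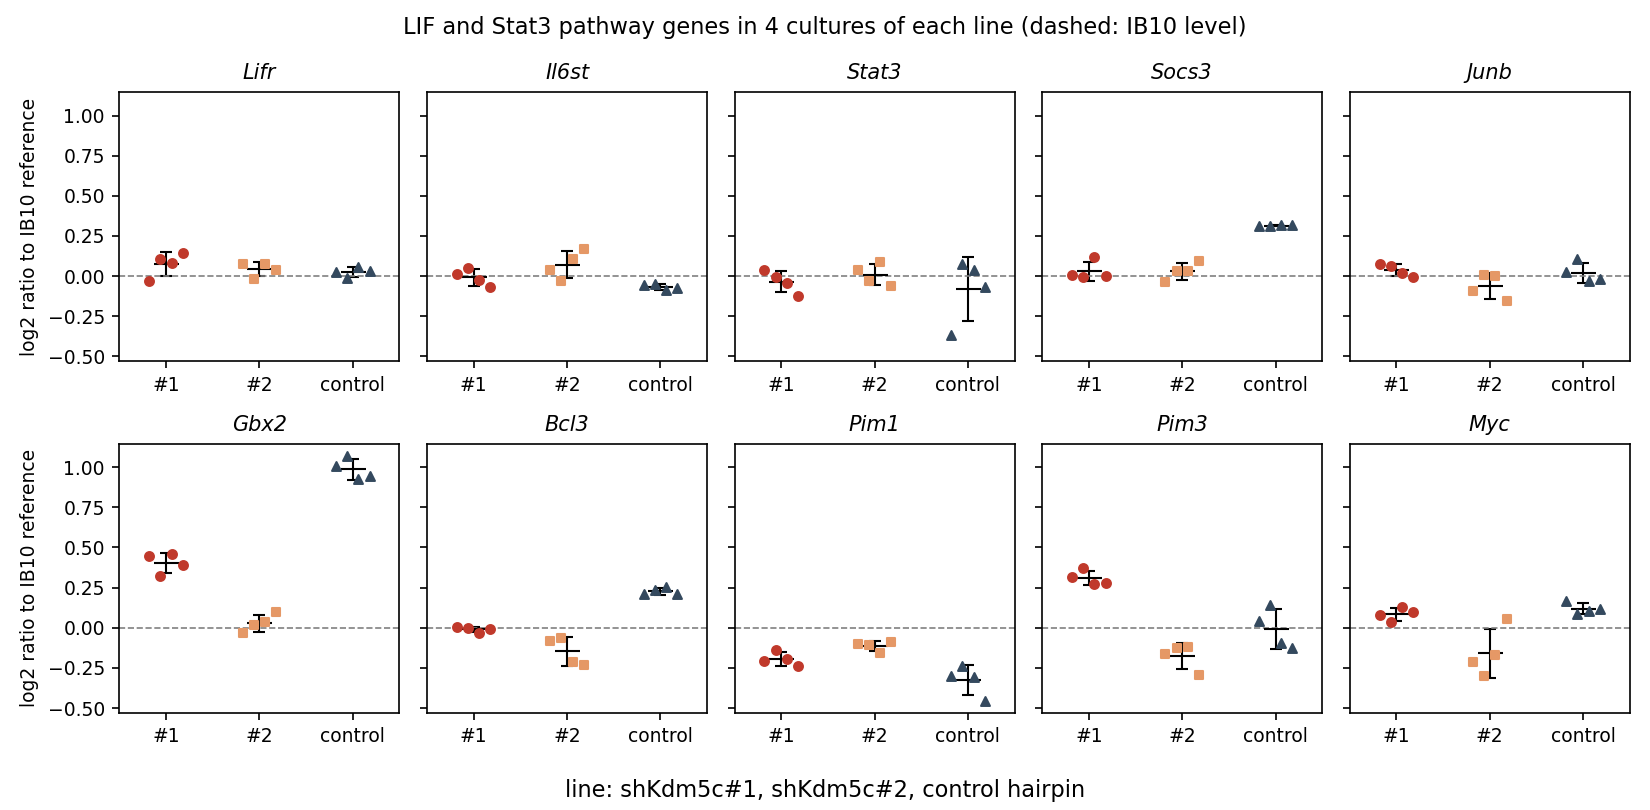
Log2 ratio of each culture to the IB10 reference for the 10 members, with the dye effect removed; points are cultures A to D from left to right within a line, and black bars are the mean and SD of 4 cultures. Gbx2 separates the 3 lines without overlap, Socs3 and Bcl3 are highest in the control line, and the lone low Stat3 point of the control line is culture A, a spot not above background.

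Among the receptor chains, Lifr, the LIF-binding subunit, differed little between the lines. As log2 ratio to IB10 with the dye effect removed, the scale of all culture values here, Lifr stood at -0.03, 0.11, 0.08 and 0.14 in cultures A to D of shKdm5c#1 and at 0.08, -0.02, 0.08 and 0.04 in those of shKdm5c#2. In the control line it stood at 0.03, -0.01, 0.06 and 0.03. The lines overlapped. The difference from control was 0.05 in shKdm5c#1 (95% interval -0.03 to 0.13) and 0.02 in shKdm5c#2 (-0.07 to 0.10), neither called (limma adjusted p = 0.452 and 0.816). Lifr has 4 probes, and the mean over them gave -0.05 and -0.0084, so its sign depends on the probe. Against IB10, Lifr was not called in shKdm5c#1 (0.08, 0.0528), but it was in 5 of 15 alternatives, including that without culture A (0.00711). The dimmer probe MMAB035128 gave the other sign there, at -0.11 and called (0.0251 over all gene probes). The same probe was lower in shKdm5c#1 than in shKdm5c#2 by a log2 difference of -0.19 (adjusted p = 0.0129 over all gene probes), while the brightest gave 0.03 (0.672 over genes).

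Il6st encodes gp130, the chain that LIF shares with interleukin-6 and its relatives. It stood at 0.01, 0.05, -0.03 and -0.07 in shKdm5c#1, at 0.04, -0.03, 0.11 and 0.17 in shKdm5c#2 and at -0.05, -0.05, -0.09 and -0.07 in the control line. Every shKdm5c#2 culture was above every control culture, whereas shKdm5c#1 overlapped both. Il6st was higher than control by 0.14 in shKdm5c#2 (standard error 0.04, adjusted p = 0.0254) and differed by 0.06 in shKdm5c#1, not called (0.405). The call was lost in 8 of 19 alternative analyses (adjusted p 0.0042 to 0.488), among them those without culture C or D of shKdm5c#2 or culture C or D of the control line (0.0613 to 0.0771).

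Stat3, the transcription factor that carries the signal to the nucleus, showed no called difference. Its values were 0.04, -0.01, -0.04 and -0.12 in shKdm5c#1, 0.04, -0.03, 0.09 and -0.06 in shKdm5c#2, and -0.37, 0.08, 0.04 and -0.07 in the control line. The low control value belongs to culture A, whose Stat3 spot was not above background in either channel (signal minus local background 13.1 for the sample and 30.6 for the reference), where the other 11 sample channels gave 228 to 416. With that culture the differences from control were 0.05 and 0.09 in shKdm5c#1 and shKdm5c#2 (adjusted p = 0.759 and 0.474). Without it they were -0.06 and -0.02 (0.446 and 0.850), so the sign of the Stat3 difference rests on this spot. A second, dimmer Stat3 probe gave -0.08 and -0.08 (0.354 and 0.305 over all gene probes).

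Socs3, the feedback inhibitor, was lower in both knockdown lines than in the control line. The 250 bases before the Socs3 transcription start hold the one match among the members to TTCNNNGAA, the core of sites that Stat proteins bind, and are shown for that reason with the match in capitals. They are from RefSeq on GRCm38.p6, chr11:117969367-117969616, minus strand, 5′ to 3′.
Socs3: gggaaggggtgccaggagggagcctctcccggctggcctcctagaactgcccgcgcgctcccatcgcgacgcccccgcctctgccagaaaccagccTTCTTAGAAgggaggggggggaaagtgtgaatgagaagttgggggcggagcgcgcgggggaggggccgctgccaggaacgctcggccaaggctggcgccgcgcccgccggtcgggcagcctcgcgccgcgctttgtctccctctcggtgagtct
The match lies from -154 to -146 relative to the start. The motif reads the same on both strands, and it was searched in windows of 300 bases, 250 before to 50 after each start. It was found in 8.33 percent of 32544 different windows of the RefSeq table and in 1 of the 9 members that have a window there, Socs3. A match is a description of letters, not of a bound site, and binding was not measured here.

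In shKdm5c#1, Socs3 stood at 0.01, -0.01, 0.12 and -0.00049, in shKdm5c#2 at -0.03, 0.03, 0.03 and 0.09, and in the control line at 0.31, 0.31, 0.32 and 0.32. Every knockdown culture was below every control culture, and the knockdown lines overlapped near the IB10 level. Means were 0.03 ± 0.06 and 0.03 ± 0.05 against 0.32 ± 0.0019 in the control line (SD after removal of the dye effect, n = 4 each). As measured, with the dye effect left in, the SDs were 0.16, 0.08 and 0.11. On that scale culture C of shKdm5c#1, in Cy3, stood at 0.2169 and control culture B, in Cy5, at 0.2174. Socs3 fell to 82.0 percent of control in shKdm5c#1 (log2 -0.29, standard error 0.04, adjusted p = 4.05e-05) and to 82.1 percent in shKdm5c#2 (-0.28, 0.04, 2.79e-05). The difference between shKdm5c#1 and shKdm5c#2 was -0.0017, with a 95% interval of -0.08 to 0.08 (0.986). Against IB10 the control line was the one that differed, at 124 percent (log2 0.32, adjusted p = 1.58e-07), while shKdm5c#1 and shKdm5c#2 each differed by 0.03 and were not called (0.474 and 0.463). Both calls against control held in 18 of 19 alternatives. Under median centring of the arrays in place of loess the differences were -0.23 and -0.24 and were not called (0.628 and 0.470, with lowest values over the alternatives of 3.93e-06 and 7.62e-06).

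**Figure D2:**
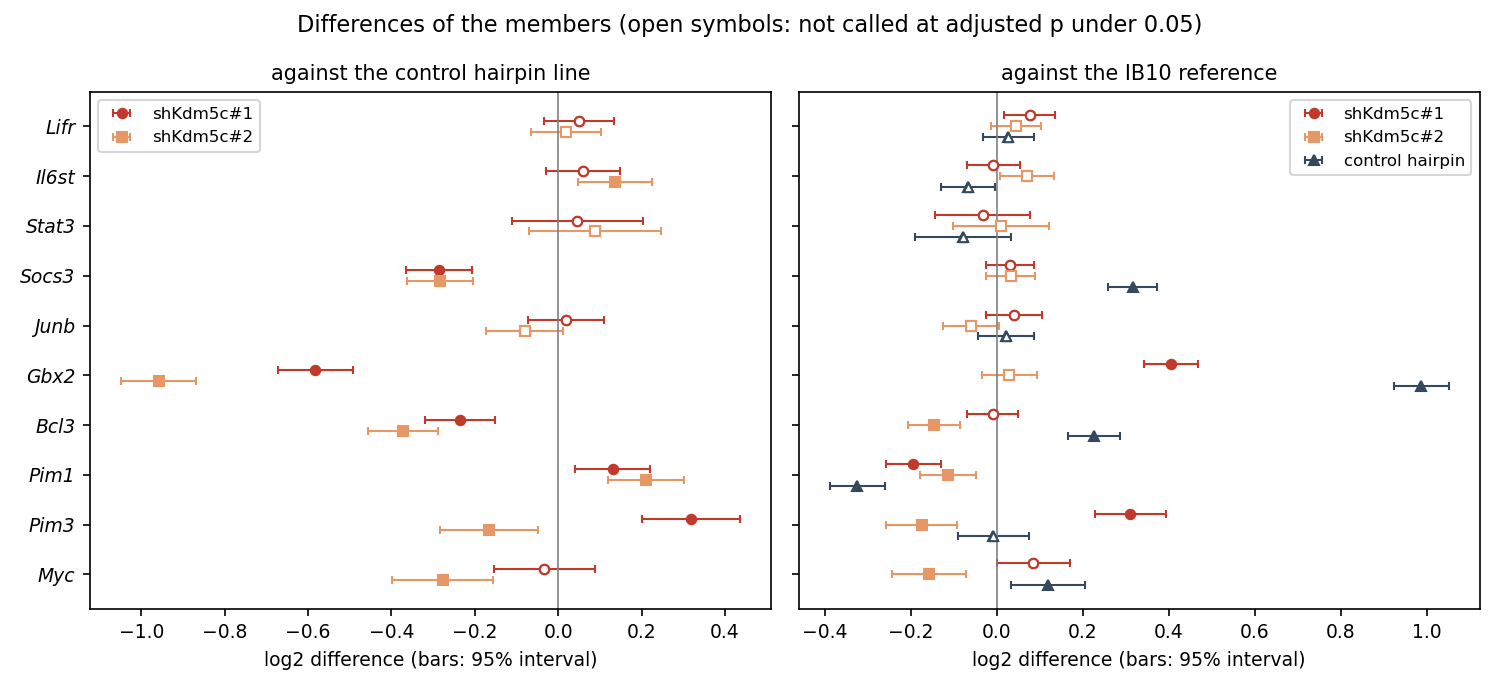
Log2 differences of the 10 members with 95% intervals, knockdown lines against the control line on the left and each line against the IB10 reference on the right; open symbols were not called. Gbx2 has the largest differences on both sides, and for Socs3 it is the control line that stands away from IB10.

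Of the downstream genes, the homeobox gene Gbx2, a LIF and Stat3 target that can sustain mouse ES cell self-renewal when overexpressed, changed most. Gbx2 stood at 0.45, 0.32, 0.46 and 0.39 in shKdm5c#1, at -0.03, 0.02, 0.04 and 0.10 in shKdm5c#2 and at 1.00, 1.07, 0.93 and 0.95 in the control line. The 3 lines did not overlap, with means of 0.40 ± 0.06 in shKdm5c#1, 0.03 ± 0.05 in shKdm5c#2 and 0.99 ± 0.06 in the control line (SD, n = 4 each). With the dye effect left in, the SDs were 0.15, 0.08 and 0.09. It fell to 66.8 percent of control in shKdm5c#1 (log2 -0.58, standard error 0.04, adjusted p = 7.85e-08) and to 51.5 percent in shKdm5c#2 (-0.96, 0.04, 7.82e-11). Both calls held in all 19 alternatives run. The knockdown lines differed from each other by 0.38 (95% interval 0.29 to 0.47, adjusted p = 8.34e-06), a call that median centring ended at 0.38 (0.0712, the highest of 19 alternatives, the lowest being 2.03e-06).

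Set against IB10, Gbx2 was at 132 percent in shKdm5c#1 (log2 0.40, adjusted p = 5.90e-08), at 102 percent in shKdm5c#2 (0.03, 0.575) and at 198 percent in the control line (0.99, 1.06e-12). By size, that control difference ranked 16 of 18322 genes. Tests against IB10 leave out the spread of the reference, which is 1 preparation. Gbx2 was thus below the control line in both knockdown lines and in neither below IB10.

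Bcl3, a nuclear partner of NF-kappaB and a Stat3 target, followed the same order of lines. It stood at 0.0024, -0.0026, -0.03 and -0.01 in shKdm5c#1, at -0.08, -0.06, -0.21 and -0.23 in shKdm5c#2 and at 0.21, 0.23, 0.25 and 0.21 in the control line. No culture of one line reached the range of another. Bcl3 fell to 84.9 percent of control in shKdm5c#1 (log2 -0.24, standard error 0.04, adjusted p = 0.00044) and to 77.2 percent in shKdm5c#2 (-0.37, 0.04, 2.97e-06). Median centring and the Cy5 arrays alone ended the shKdm5c#1 call (-0.20 and -0.23, with 0.143 and 0.101 in a range from 4.65e-05 to 0.143), while the shKdm5c#2 call held in all 19 alternatives. The difference of 0.14 between shKdm5c#1 and shKdm5c#2 (0.0228) was lost in 9 of 19 alternatives, including those without culture A, B or D of shKdm5c#1 or culture C or D of shKdm5c#2 (0.0554 to 0.0901). Against IB10, Bcl3 was not called in shKdm5c#1 (-0.01, 0.851), was lower in shKdm5c#2 (-0.15, 0.00075) and higher in the control line (0.23, 1.30e-05).

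Pim1 and Pim3 encode serine/threonine kinases that promote survival and growth, and their genes are Stat3 targets. Pim1 was below IB10 in all 12 cultures, at -0.20, -0.14, -0.20 and -0.24 in shKdm5c#1, at -0.10, -0.11, -0.16 and -0.09 in shKdm5c#2 and at -0.30, -0.24, -0.31 and -0.45 in the control line. All shKdm5c#2 cultures lay above the control cultures, and shKdm5c#1 overlapped with the control line at its lowest culture. Pim1 was higher than control by 0.13 in shKdm5c#1 (standard error 0.04, adjusted p = 0.0440) and by 0.21 in shKdm5c#2 (0.04, 0.00161). The shKdm5c#1 call was lost in 11 of 19 alternatives, among them those without culture A, B or C of shKdm5c#1 or culture A, C or D of the control line (0.0697 to 0.158, in a range over all alternatives of 0.0153 to 0.457). The shKdm5c#2 call was lost under median centring and on the Cy5 arrays alone (0.0938 and 0.110, range 0.000618 to 0.110).

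Pim3 separated the knockdown lines. It stood at 0.32, 0.37, 0.28 and 0.28 in shKdm5c#1, at -0.16, -0.12, -0.12 and -0.29 in shKdm5c#2 and at 0.04, 0.14, -0.09 and -0.12 in the control line. The shKdm5c#1 cultures were above all others, and shKdm5c#2 overlapped the control line. Pim3 rose to 125 percent of control in shKdm5c#1 (log2 0.32, standard error 0.06, adjusted p = 0.000567) and fell to 89.1 percent in shKdm5c#2 (-0.17, 0.06, 0.0402). That fall was lost in 10 of 19 alternatives, among them those without culture A or D of shKdm5c#2 or culture A or B of the control line (0.0742 to 0.143, range over all alternatives 0.00593 to 0.507). The direct difference, shKdm5c#1 minus shKdm5c#2, was 0.49 (95% interval 0.37 to 0.60, adjusted p = 9.01e-06) and was called in all 19 alternatives. On the Cy5 arrays alone the rise in shKdm5c#1 was 0.32 and not called (0.121, range 3.36e-05 to 0.121).

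Myc, a transcription factor of growth and proliferation that Stat3 induces, stood at 0.08, 0.03, 0.13 and 0.10 in shKdm5c#1, at -0.21, -0.30, -0.17 and 0.05 in shKdm5c#2 and at 0.17, 0.08, 0.10 and 0.12 in the control line. Culture D of shKdm5c#2 stood apart from the other 3 and was above 1 shKdm5c#1 culture, but all 4 lay below the control cultures. Myc fell to 82.6 percent of control in shKdm5c#2 (log2 -0.28, standard error 0.06, adjusted p = 0.00183) and was not called in shKdm5c#1 (-0.03, 0.770). Without culture D the shKdm5c#2 difference was -0.36 (7.67e-07). Median centring and the Cy5 arrays alone ended that call, at -0.23 and -0.23 (0.627 and 0.286). The difference of 0.24 between shKdm5c#1 and shKdm5c#2 was called (0.00608), but not under median centring or on the Cy5 arrays alone (0.732 and 0.453). The other 2 probes gave 0.28 for it, called (0.0140 over all gene probes), and 0.15, not called (0.0623). Of the other 2 Myc probes, one gave -0.25 (0.0227 over all gene probes) and one -0.14 (0.0514) in shKdm5c#2 against control.

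Junb, an AP-1 subunit induced early after LIF, was not called in any comparison with its brightest probe. It stood at 0.08, 0.06, 0.02 and -0.0024 in shKdm5c#1, at -0.09, 0.01, 0.00054 and -0.16 in shKdm5c#2 and at 0.03, 0.10, -0.03 and -0.02 in the control line, with all 3 lines overlapping. The differences from control were 0.02 and -0.08 in shKdm5c#1 and shKdm5c#2 (95% intervals -0.07 to 0.11 and -0.17 to 0.01, adjusted p = 0.837 and 0.225). The difference of 0.10 between the knockdown lines was not called with the brightest probe (0.139), was called with the mean of both probes (0.0245) and with the dimmer probe alone (0.16, 0.0110 over all gene probes). The dimmer probe was also called higher than IB10 in shKdm5c#1 (0.10, 0.0177).

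Between the knockdown lines, 4 members were called, all higher in shKdm5c#1 than in shKdm5c#2 (Gbx2, Bcl3, Pim3 and Myc), where 18.6 percent of all genes were called (10.1 percent higher and 8.51 percent lower). Against IB10, 3 members were called in shKdm5c#1, beside 27.1 percent of all genes (12.5 percent higher and 14.5 percent lower). In shKdm5c#2, 4 were called, beside 26.3 percent (11.4 percent higher and 14.9 percent lower), and in the control line 5, beside 26.3 percent (12.6 percent higher and 13.7 percent lower). The shares of members called against IB10 in shKdm5c#1 and shKdm5c#2, 3 and 4 of 10, were near these backgrounds. In shKdm5c#1 Gbx2 and Pim3 were higher than IB10 and Pim1 lower, and in shKdm5c#2 Bcl3, Pim1, Pim3 and Myc were lower. In shKdm5c#2 the Pim1 call (-0.11, 0.0096) was lost without culture C (0.0712), and the Myc call (-0.16, 0.00716) without culture A or B (0.0563 and 0.0763). In the control line Socs3, Gbx2, Bcl3 and Myc were higher than IB10 and Pim1 lower, the Myc call (0.12, adjusted p = 0.0400) being lost without any one of its 4 control cultures (0.0649 to 0.177). The comparisons with IB10 share the reference.

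The other genes of the pathway gave 9 higher and 6 lower of 61 in shKdm5c#1 against control, and 13 higher and 11 lower in shKdm5c#2, beside the backgrounds of 18.7 and 22.2 percent. Their medians were 0.03 and -0.02. Under the alternatives the counts of called genes ran from 2 to 21 and from 7 to 26, lowest with median centring, which called 419 and 795 of all genes. Genes are named where they were called with one sign in both lines or reached a called log2 difference of 0.3 in either, and the Janus kinases whatever their values; Cntfr and Osmr were named after their values were seen. Lif, Tfcp2l1 and Cebpd were not analysed here.

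**Figure D3:**
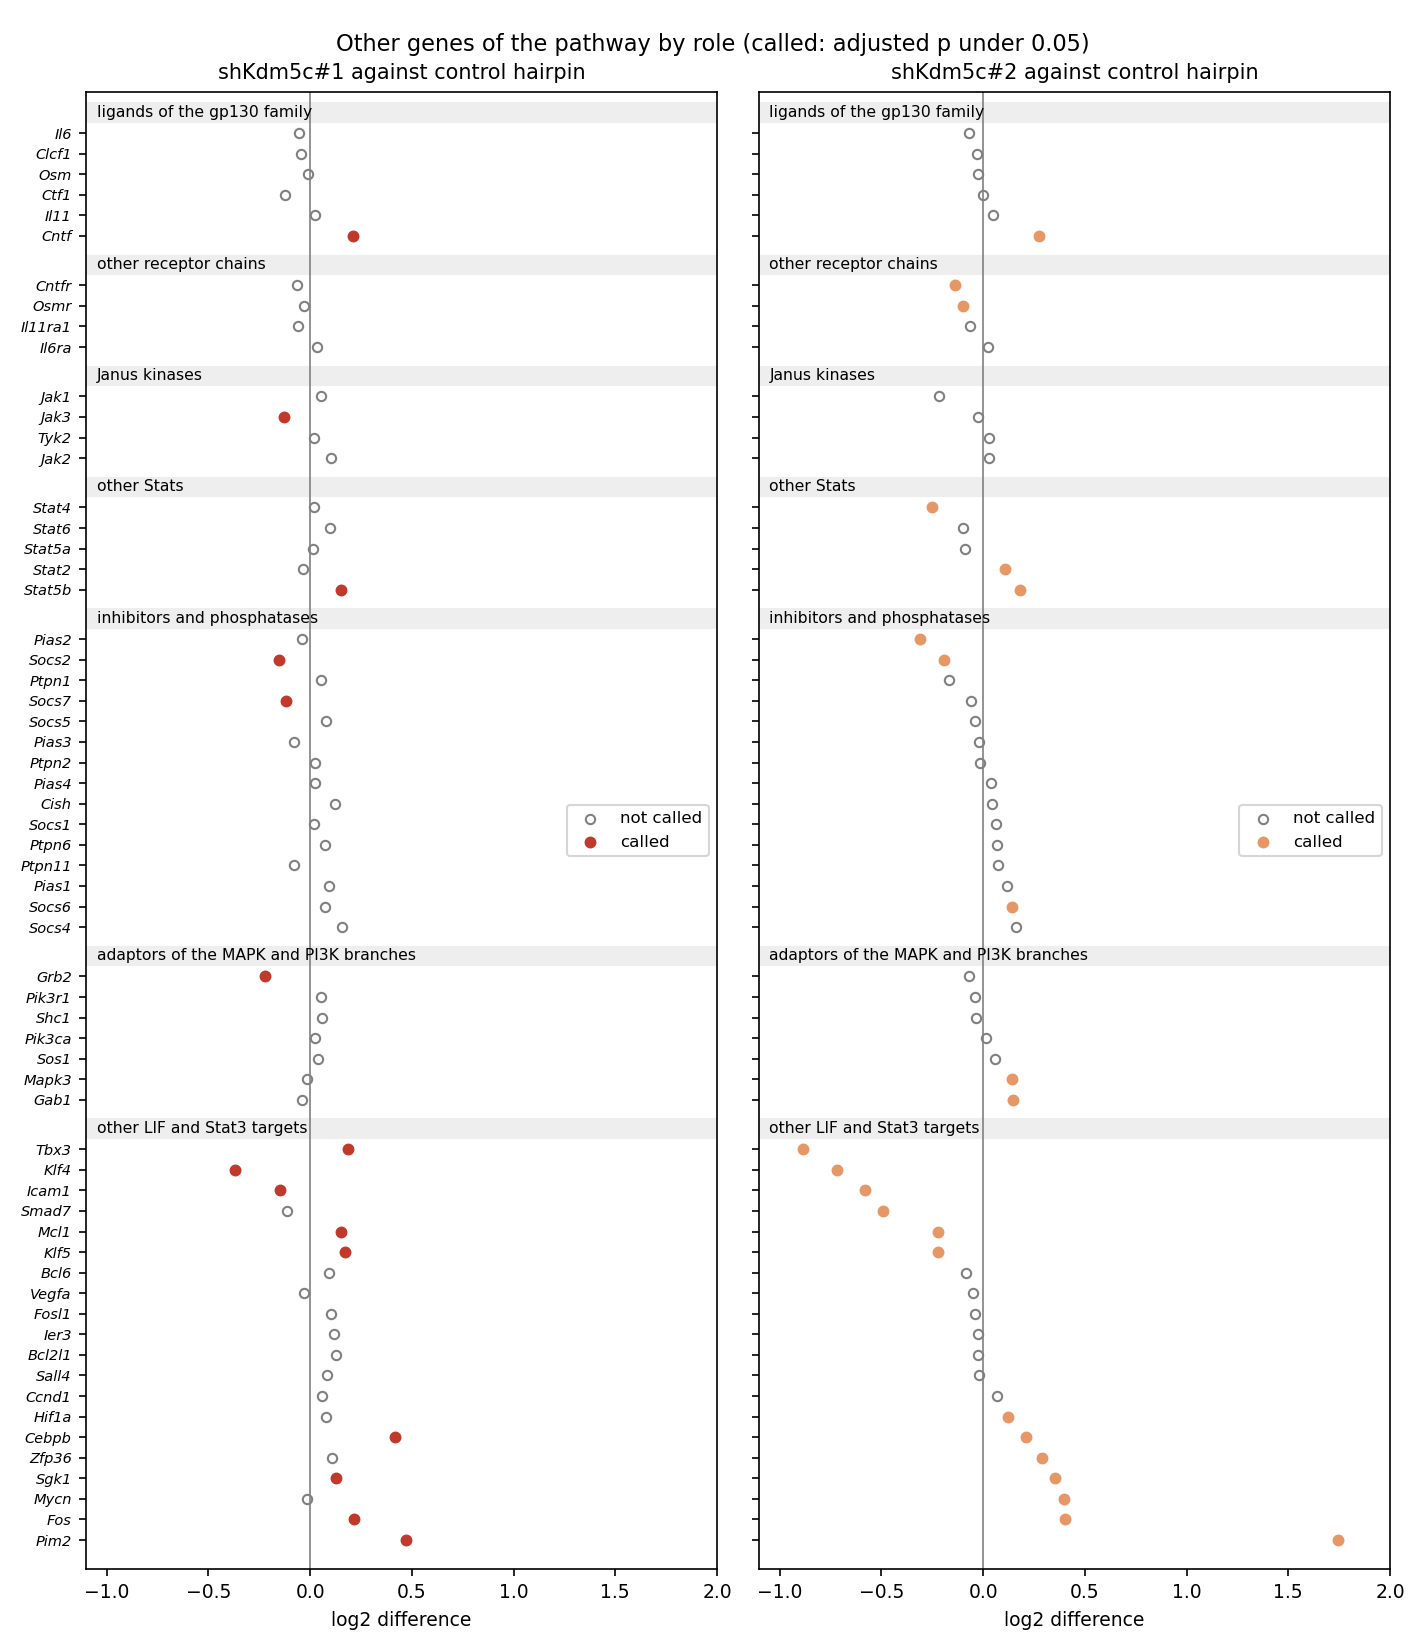
Log2 differences from the control line of the 61 other pathway genes, grouped by role, for shKdm5c#1 on the left and shKdm5c#2 on the right; filled points were called. The larger differences are among the targets, from -0.89 (Tbx3) to 1.74 (Pim2) in shKdm5c#2, while the kinases and receptor chains lie between -0.22 and 0.10 in both lines.

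The counts in this paragraph stand beside 18.7 percent of all genes called in shKdm5c#1 and 22.2 percent in shKdm5c#2. Of 6 ligands of the gp130 family, 1 was called in each line, Cntf, the ciliary neurotrophic factor. It differed by 0.21 in shKdm5c#1 and 0.27 in shKdm5c#2 (adjusted p = 0.000401 and 2.40e-05). Median centring ended both Cntf calls (0.114 in shKdm5c#2), and the Cy5 arrays alone ended that in shKdm5c#1 (highest of its alternatives 0.323). Of 4 other receptor chains, 2 were lower in shKdm5c#2, Cntfr at -0.14 and Osmr at -0.10 (0.0124 and 0.0476), and in shKdm5c#1 these differed by -0.06 and -0.03 and were not called. Jak1, Jak2 and Tyk2, the kinases that act at gp130, differed by 0.05, 0.10 and 0.02 in shKdm5c#1 and by -0.22, 0.03 and 0.03 in shKdm5c#2, none called. Jak1 stood at -0.20, -0.40, -0.27 and 0.19 in cultures A to D of shKdm5c#2. In the control line it stood at 0.03, -0.13, 0.15 and 0.15. Cultures A to C of shKdm5c#2 were thus below every control culture, and culture D was above them. The fourth kinase, Jak3, was lower in shKdm5c#1 (-0.13, 0.0155). The calls of Cntfr, Osmr and Jak3 were not followed singly under the alternatives. Stat5b rose by 0.15 and 0.18 in shKdm5c#1 and shKdm5c#2 (0.0243 and 0.00578), 1 of 5 other Stats called in shKdm5c#1 and 1 of 3 called in shKdm5c#2. With the mean of its probes these differences were 0.07 and 0.08 and were not called (0.129 and 0.0899). The Stat5b call was lost in 10 of 19 alternatives in shKdm5c#1, among them those without culture A, B or D of shKdm5c#1 or culture C or D of the control line (0.0519 to 0.0812), and in 4 of 19 in shKdm5c#2.

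Among 15 inhibitors and phosphatases, 2 were lower in shKdm5c#1, and 1 was higher and 2 lower in shKdm5c#2. Over all genes, 9.01 percent were higher and 9.66 percent lower in shKdm5c#1, and 9.96 and 12.3 percent in shKdm5c#2. Socs2, a relative of Socs3, fell in both lines, by 0.15 in shKdm5c#1 and 0.19 in shKdm5c#2 on the log2 scale (adjusted p = 0.0142 and 0.00241). Pias2, a SUMO ligase, was lower in shKdm5c#2 (-0.31, 6.58e-06) and not called in shKdm5c#1 (-0.04, 0.494). With the mean of probes Pias2 gave -0.15 in shKdm5c#2, still called, and Socs2 gave -0.10 in shKdm5c#1, not called (0.0900). Median centring ended the Pias2 call in shKdm5c#2 (limma adjusted p = 0.450). The Socs2 call in shKdm5c#2 was lost with median centring and on the Cy5 arrays alone (highest 0.763). Of 7 adaptors of the MAPK and PI3K branches, 1 was lower in shKdm5c#1 and 2 were higher in shKdm5c#2, beside the same shares over all genes.

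Of 20 further target genes, 7 were higher and 2 lower in shKdm5c#1, and 7 were higher and 6 lower in shKdm5c#2. Over all genes, 9.01 percent were higher and 9.66 percent lower in shKdm5c#1, and 9.96 and 12.3 percent in shKdm5c#2. Pim2, the third Pim kinase, stood at -0.88, -0.80, -0.78 and -0.83 in shKdm5c#1, at 0.47, 0.47, 0.45 and 0.41 in shKdm5c#2 and at -1.30, -1.17, -1.31 and -1.40 in the control line. The lines were far apart, and Pim2 was higher than control by 0.47 and 1.74 (adjusted p = 9.61e-07 and 1.69e-13). The 3 Pim genes ordered the line means differently: Pim1 and Pim2 had their highest mean in shKdm5c#2, which for Pim1 was not called against shKdm5c#1 (-0.08, 0.241), and Pim3 had its highest in shKdm5c#1.

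Klf4, a transcription factor of the naive state induced by Stat3, stood at 0.11, 0.11, 0.11 and 0.13 in shKdm5c#1, at -0.26, -0.29, -0.21 and -0.16 in shKdm5c#2 and at 0.51, 0.49, 0.49 and 0.46 in the control line. The order of the lines was that of Gbx2 and Bcl3, and Klf4 fell by 0.37 and 0.72 in shKdm5c#1 and shKdm5c#2 against control (adjusted p = 9.05e-07 and 1.70e-10), the shKdm5c#1 call being lost with median centring (0.249, the highest over its alternatives). Tbx3, another factor of the naive network, was at 0.61 to 0.64 in shKdm5c#1, at -0.50 to -0.39 in shKdm5c#2 and at 0.41 to 0.47 in the control line. It rose by 0.19 in shKdm5c#1 (0.000596) and fell by 0.89 in shKdm5c#2 (8.67e-12). The rise lost its call in 3 of 19 alternatives, median centring (0.170), the Cy5 arrays alone (0.110) and the mean of probes (0.09, 0.0538), and with the mean of probes the shKdm5c#2 difference was -0.47 and called.

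**Figure D4:**
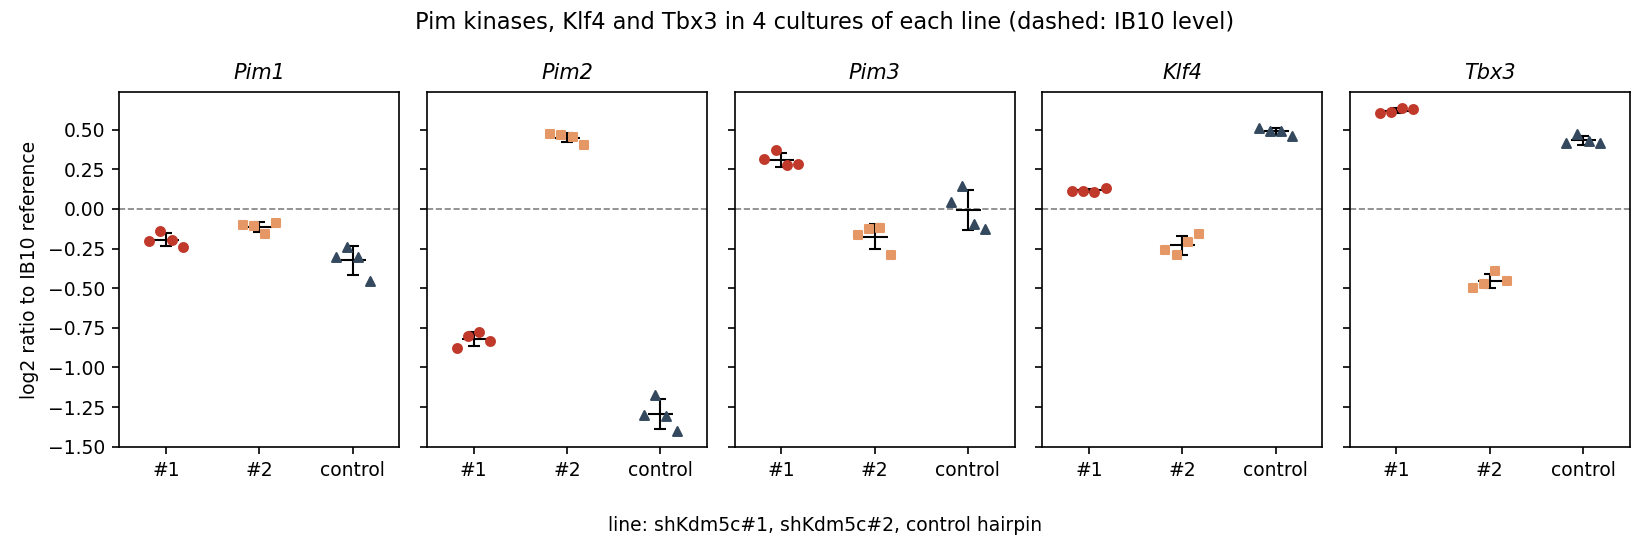
Log2 ratio to IB10 in each culture for the 3 Pim kinase genes, Klf4 and Tbx3, dye effect removed; black bars are the mean and SD of 4 cultures. Pim2 spans from -1.40 in a control culture to 0.47 in a shKdm5c#2 culture, and Klf4 orders the lines as Gbx2 does.

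Further targets followed no single direction. Cebpb rose by 0.42 and 0.21, Fos by 0.22 and 0.40 and Sgk1 by 0.13 and 0.35 in shKdm5c#1 and shKdm5c#2 (highest adjusted p of the 6 calls 0.0126). With the mean of probes Cebpb gave 0.25 and 0.13, both called, while Sgk1 gave 0.03 and 0.09, neither called. The Cy5 arrays alone ended both Cebpb calls (0.0694 and 0.279), and the shKdm5c#2 call was lost in 3 of 19 alternatives in all. Median centring and the Cy5 arrays alone ended the Fos call in shKdm5c#1 (highest 0.119). Icam1 fell by 0.15 and 0.58 (0.0157 and 2.27e-08). In shKdm5c#1 the calls of Icam1, Sgk1 and Socs2 held in 12, 14 and 15 of 19 alternatives, Icam1 being lost without culture B or D of shKdm5c#1 or culture D of the control line, and Sgk1 without culture D of shKdm5c#1. With the mean of probes Icam1 gave -0.09 in shKdm5c#1 and was called. Smad7 and Mycn were called in shKdm5c#2 alone, at -0.49 and 0.40 (0.00012 and 0.000652), against -0.11 and -0.02 in shKdm5c#1, and both differed between the knockdown lines (0.38 and -0.41, 0.0017 and 0.000605). Median centring and the Cy5 arrays alone ended both Mycn calls (highest limma adjusted p 0.499 and 0.747). Mycn stood at 0.06, -0.06, 0.12 and 0.40 in cultures A to D of shKdm5c#2. The Smad7 difference between the knockdown lines was not called on the Cy5 arrays alone (0.168).

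Marker genes of a neighbouring cell state ordered the lines in reverse of Gbx2, Bcl3 and Klf4, highest in shKdm5c#2 and lowest in the control line. Of 10 markers of the primed epiblast, 6 were higher and 1 lower than control in shKdm5c#1, and 8 were higher in shKdm5c#2. Over all genes, 9.01 percent were higher and 9.66 percent lower in shKdm5c#1, and 9.96 and 12.3 percent in shKdm5c#2. Against IB10, 8 markers were lower in shKdm5c#1, 5 were higher and 1 lower in shKdm5c#2, and 8 were lower in the control line (medians -0.28, 0.19 and -0.69). There, 12.5, 11.4 and 12.6 percent of all genes were higher and 14.5, 14.9 and 13.7 percent lower. Their summed level, as ppm of the summed signal of all genes, was 304 to 353 in shKdm5c#1, 482 to 609 in shKdm5c#2 and 265 to 305 in the control line. All 10 were above background in every culture. The 11 ES cell markers summed to 5372 to 6390, 4932 to 5956 and 5426 to 6597 ppm in the same order of lines. Against control, 2 of them were higher and 2 lower in shKdm5c#1, and 1 was higher and 3 lower in shKdm5c#2, beside the shares over all genes given above. The part of these shifts in the members' differences was not tested.

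Markers of other cells were also read. Of 15 fibroblast and feeder markers, 2 were higher and 7 lower than control in shKdm5c#1, and 2 higher and 6 lower in shKdm5c#2. Over all genes, 9.01 percent were higher and 9.66 percent lower in shKdm5c#1, and 9.96 and 12.3 percent in shKdm5c#2. The fibroblast and feeder markers summed to 601 to 699 ppm in shKdm5c#1, 464 to 679 in shKdm5c#2 and 693 to 824 in the control line. Of the 15, 12 were above background in all 4 cultures of shKdm5c#1, 14 in those of shKdm5c#2 and 8 in those of the control line. The ppm sums follow mainly Vim, the brightest of the list. Before normalization, its median signal minus background was 8661 in shKdm5c#1, 7024 in shKdm5c#2 and 9455 in the control line. S100a4 came next at 1575, 1084 and 977. These unnormalized signals rank the genes within a line and do not compare the lines. Of 11 extraembryonic endoderm markers, 5 were lower in shKdm5c#1 and 6 in shKdm5c#2 against control, beside the same shares over all genes. Their sums were 104 to 149, 101 to 123 and 115 to 133 ppm in shKdm5c#1, shKdm5c#2 and the control line. Pdgfra is in both lists. No marker of these lists was below background in all 4 cultures of a line. That cutoff passed 84.4 to 96.4 percent of all gene spots on an array, so passing it says little about expression. The part of these markers in the members' differences was not tested.

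As a description over 12 arrays, the genes most like Gbx2 in their values were Slc47a1, Stra8 and Tex19.1, at Pearson r of 0.994, 0.992 and 0.991. They were taken from 708 genes that varied with an SD of at least 0.2, and all arrays share the reference. For Bcl3 they were Gpr124, Hs3st1 and Tnfsf12 (0.981, 0.975 and 0.975), and for Pim3 Ass1, Zfp229 and Cry1 (0.950, 0.940 and 0.937). Slc47a1 differed from control by -0.94 in shKdm5c#1 and -1.52 in shKdm5c#2, and Ass1 by 0.43 and -0.25.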

How the data were processed

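RNA of 12 cultures (3 lines, 4 cultures each) was hybridised in dye swap against RNA of untreated IB10 cells. Per the file headers, the deposited raw files hold the intensity of each spot and its local background in both channels, not normalized. The authors' derived files hold intensity per dye as normalized by them, by a method not given in the sources used here. Their log2 table, also deposited, equals log2 of the derived Cy5 over Cy3 signal on all arrays (largest difference 5.00e-10, column medians -0.0026 to 0.016), so its scale and direction are known and its normalization is not.

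Starting from the raw files, limma 3.58.1 under R 4.3.3 corrected background by normexp (offset 50). Ratios were normalized within arrays by loess (4046 control spots at weight 0, 41174 gene spots) and turned to sample over reference. The brightest probe stood for each of 18322 genes. One linear model with line and dye terms covered all 12 arrays (8 residual and 7.64 prior degrees of freedom), and p-values were moderated and adjusted by Benjamini-Hochberg over all genes, or over 41174 gene probes where a single probe is given. Culture values have the fitted dye effect subtracted. A spot was above background when it passed the background median by 2 background SDs. No gene was filtered and no array left out. The fit was tested on simulated data. Summed marker levels are shares of the loess-normalized sample signal of all genes.

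The members and gene lists were chosen with earlier results of these data known. All 10 members are named. Other pathway genes are named when called with one sign in both knockdown lines, or when called with a log2 difference of at least 0.3 in either (at most 15), and the Janus kinases, Pim2 and the genes most like Gbx2, Bcl3 and Pim3 are also given. Cntfr, Osmr, Mcl1 and Klf5 were named after their values were seen. Promoter letters are from the RefSeq table for GRCm38.p6, and the array files used here name no genome build. Alternatives were median centring, no background correction, an offset of 16, leaving out the dimmest 25 percent of genes, the mean of probes, no dye term, each dye orientation alone, a replicate block, the authors' deposited log2 ratios, array weights and leaving out each culture. Slide or scan as a block was not run, because the files name neither. Figures were drawn with matplotlib under Python.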

Additional observations from a re-analysis of the deposited data

Results flagged for a closer look

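Socs3 in shKdm5c#1 had 1 culture away from the others: culture C stood at 0.12 over IB10, against -0.01 to 0.01 in the other 3, a gap of 0.908 of the whole range. Chance alone sets apart about 1 in 20 such groups of cultures. Without this culture Socs3 was lower than control by a log2 difference of -0.32 (limma adjusted p = 2.08e-05).

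The knockdown lines differed from each other for 4 members, tested as shKdm5c#1 minus shKdm5c#2. Each hairpin has 1 line, so an effect of the hairpin and a difference between lines cannot be told apart. The differences were 0.38 for Gbx2 (limma adjusted p = 8.34e-06), 0.14 for Bcl3 (0.0228), 0.49 for Pim3 (9.01e-06) and 0.24 for Myc (0.00608). Median centring ended the calls of Gbx2, Bcl3 and Myc. Kdm5c itself differed by 0.06 between these lines (95% interval -0.05 to 0.16, 0.546).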

How the results depend on the processing

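Over the 60 differences of the members and 1020 alternative values, 938 kept their side of the threshold, 71 lost a call, 11 gained one, and no called value changed sign. The count of members called was most affected by median centring, which gave 2 in shKdm5c#1 and 2 in shKdm5c#2 against control (5 and 7 with loess), 1 between the knockdown lines (4), 0 in shKdm5c#2 and 3 in the control line against IB10 (4 and 5). That 0 by limma stands beside 2 members with an unadjusted p under 0.05, and the authors' deposited log2 ratios gave 4, beside 4864 of all genes. Median centring called 419, 795 and 474 of all genes where loess called 3419, 4074 and 3404, and the share higher among them was 59.4, 44.4 and 71.5 percent against 48.3, 44.8 and 54.2 percent. In the control line against IB10 that share was 35.0 percent, against 47.9 percent with loess. Against IB10, median centring called 1204 of all genes in shKdm5c#2 and 988 in the control line, where loess called 4810 and 4816. The 6 arrays with the sample in Cy5 alone gave 2, 3 and 2 members in the 3 comparisons between lines, beside 812, 1298 and 741 of all genes. In shKdm5c#2 against IB10 they gave 1, beside 2502 of all genes. For shKdm5c#1 against IB10, array weights gave 5 and the arrays in Cy3 alone gave 5, where 3 were called. Of all genes these called 5829 and 5227, where 4958 were called. Leaving out each culture gave 4 to 5, 5 to 7 and 3 to 4 members in the 3 comparisons between lines, and 3 to 4, 3 to 4 and 4 to 4 against IB10. Of all genes, these fits called 2791 to 3051, 3410 to 4317 and 2759 to 4012 between lines. Against IB10 they called 3683 to 4014, 3810 to 4918 and 3485 to 4122. The cause of these changes was not tested.

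The letters A to D were not used to pair the cultures: the same letter's deviations correlated at -0.28 to 0.28 between lines, over 0.1 in 4 of 12 pairs. Those 4 were letters B and D of each knockdown line with the control line (0.11 and 0.14 for shKdm5c#1, 0.28 and 0.16 for shKdm5c#2). What the letters share was not tested. With the letter as a replicate block, 5, 7 and 4 members were called between lines and 4, 4 and 5 against IB10. Of all genes, the block called 3837 in shKdm5c#1 and 4520 in shKdm5c#2 against control, where 3419 and 4074 were called without it. It called 3753 between the knockdown lines, where 3404 were called. Against IB10 it called 5285, 5181 and 5192, where 4958, 4810 and 4816 were called. The number of arrays, 4 per line, limits the precision, and dim spots such as 1 for Stat3 add to it.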

Other observations

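Besides Tbx3, the targets Mcl1, an anti-apoptotic relative of Bcl2, and Klf5, a transcription factor of ES cells, were called with opposite signs in the knockdown lines. Mcl1 differed from control by 0.15 in shKdm5c#1 and by -0.22 in shKdm5c#2 (limma adjusted p = 0.0216 and 0.00128). Klf5 differed by 0.17 and -0.22 (0.0491 and 0.0106). The direct differences, shKdm5c#1 minus shKdm5c#2, were 0.38 for Mcl1 (1.17e-05) and 0.39 for Klf5 (0.000118), of one sign with Pim3 at 0.49. Relative to IB10, Mcl1 was lower in shKdm5c#2 (-0.41, 5.09e-08) and in the control line (-0.18, 0.000308), and was not called in shKdm5c#1 (-0.03, 0.577). Mcl1 and Klf5 were not recomputed under the alternatives, and the rise of Tbx3 in shKdm5c#1 lost its call in 3 of 19.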
